A study of Mus musculus with 2 samples.

Results

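Genes of the lysosomal membrane, of its proton pump and of its hydrolases were followed in CD11b+ cells of mouse pancreatic tumours after deletion of Nrp2. They are 42 genes taken by symbol from a list of V-ATPase subunits, lysosomal membrane proteins, hydrolases with their cofactors, and regulators, without the cathepsins. All 42 were found among the 49585 genes of the count table, and all 42 had at least 1000 reads over both libraries. They were chosen by name, with earlier results of these data known, and not by a cut on any value measured here. They lie on 16 chromosomes, 8 of them on chromosome 8.

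The lysosome is the acidic compartment in which cells break down material taken up from outside or delivered by autophagy, and macrophages, which engulf dying cells and debris, carry many lysosomes. A rotary proton pump, the V-ATPase, acidifies it: a cytosolic V1 sector splits ATP and turns a membrane V0 sector that moves protons inward. Glycoproteins, channels and lipid exporters sit in its membrane, hydrolases that work at acid pH fill its lumen, and the transcription factors TFEB, TFE3 and MITF switch many of these genes on together through E-box type promoter elements.

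The NRP2 KO library came from mice of genotype NRP2f/fCSF1R-iCRE on a BL6 background that received daily intraperitoneal tamoxifen once their tumours could be felt; the Control library came from mice of the same genotype, for which the labels mention no tamoxifen. Both groups therefore carry the floxed Nrp2 alleles and the recombinase, and effects of tamoxifen itself cannot be told apart from those of the deletion. The recombinase is driven by Csf1r, a promoter of monocytes and macrophages, while the CD11b+ fraction also holds granulocytes and some dendritic cells. Mouse pancreatic cancer cells had been placed under the skin of the right flank, tumours were taken after 15 days, CD11b+ cells were pulled out with magnetic beads, and each group's single library was made from the pooled RNA of 3 animals.

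The NRP2 KO library held 68554172 counted reads and the Control library 64153676. Without replicate libraries, differences are given as sizes with counting intervals and were not tested. For genes with over 4 reads in either library and 0 in its counterpart, the median was 24 reads in the NRP2 KO library and 47 in the Control library, taken here as the reads that 1 captured fragment gives. Reads were therefore divided by these values before the 95% exact Clopper-Pearson interval of each ratio was taken. Such intervals cover counting error only, not differences between animals. Nrp2, the deleted gene, had 1017 reads in the NRP2 KO library and 9686 in the Control library, 9.72-fold lower under deletion (95% interval 7.0 to 14.0). Itgam, which encodes CD11b, was at 421.5 CPM in the NRP2 KO library against 294.0 CPM in the Control library. The 10 macrophage markers summed to 16568 CPM in the NRP2 KO library and 15801 CPM in the Control library. Of these 10, 1 (Mertk, ratio 3.57, 2.96 to 4.36) passed 2-fold upward and 0 downward. The sum held markers on both sides of 1. Cd68 was at 1.68, Mrc1 at 1.64, Cd14 at 1.22 and C1qc at 1.04. Adgre1 was at 0.729, Fcgr1 at 0.756, Csf1r at 0.835, C1qb at 0.893 and C1qa at 0.923. Only the interval of C1qc held 1. Markers of lymphocytes were lower: 7 of 7 T cell markers passed 2-fold downward, with a sum of 23.2 CPM in the NRP2 KO library and 80.6 CPM in the Control library, and B cell markers summed to 4.87 CPM in the NRP2 KO library and 24.2 CPM in the Control library. Of 5 dendritic cell markers 4 passed 2-fold downward, with a sum of 77.4 CPM in the NRP2 KO library and 198.1 CPM in the Control library. Xcr1, counted among these 4, had 0 reads in the NRP2 KO library and 111 in the Control library, and its interval of 0 to 2.66 holds 1. The remaining marker, Flt3, was at a ratio of 0.712 (0.41 to 1.31). Neutrophil markers summed to 987.1 CPM in the NRP2 KO library and 661.7 CPM in the Control library, a difference made mostly by S100a8 (ratio 1.92, 1.67 to 2.23) and S100a9 (ratio 1.51, 1.36 to 1.7). The neutrophil receptor genes Csf3r and Cxcr2 were both at a ratio of 0.985, with intervals that hold 1. Ngp had 1033 reads in the NRP2 KO library and 2 in the Control library, while Ly6g had 96 reads in the NRP2 KO library and 0 in the Control library and Camp 18 in the NRP2 KO library and 0 in the Control library, both with intervals that hold 1. All 4 endothelial markers passed 2-fold downward, with a sum of 20.2 CPM in the NRP2 KO library and 75.8 CPM in the Control library. Of these, Tek had 25 reads in the NRP2 KO library and 50 in the Control library (interval 0.00638 to 39.3). Cdh5 had 100 reads in the NRP2 KO library and 325 in the Control library (0.0614 to 1.12), so both intervals hold 1. Over all genes with at least 50 reads, 14.7% passed 2-fold downward and 10.8% upward. Fibroblast markers summed to 191.5 CPM in the NRP2 KO library and 321.6 CPM in the Control library, and epithelial tumour cell markers to 120.7 CPM in the NRP2 KO library and 184.5 CPM in the Control library. Adipocyte markers summed to 12.9 CPM in the NRP2 KO library and 0.868 CPM in the Control library, with Adipoq at 454 reads in the NRP2 KO library and 0 in the Control library. Mast cell markers summed to 22.2 CPM in the NRP2 KO library and 26.6 CPM in the Control library, but did not move together. Kit was lower, at a ratio of 0.565 (0.32 to 0.972). Cpa3 was at 2.38, Tpsb2 at 2.0 and Mcpt4 at 0.961, each with an interval that holds 1. The part of these markers' cell types in the lysosomal results was not tested. In bulk RNA, fewer cells of a type and less RNA per cell cannot be told apart.

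All but 6 of the 42 genes were within 1.5-fold of each other in the NRP2 KO and Control libraries, and a single pump subunit stood out. The gene of that subunit, Atp6v0d2, was 3.88-fold higher in the NRP2 KO library and was the only member at least 2-fold apart. Next came genes of the lysosomal membrane, Mcoln1 at 1.87-fold and Npc1 at 1.76-fold higher, and the growth factor precursor gene Grn at 1.54-fold higher. The lower side was led by Pla2g15 and Hexa, a phospholipase and a glycolipid-degrading hydrolase, at 1.56-fold and 1.55-fold lower. The 3 transcription factor genes differed by less than their counting intervals could resolve.

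These counts are given beside the shares over all genes, and the difference between them was not tested. Of the 42 members, 1 (2.38%) passed 2-fold upward and 0 passed it downward in the NRP2 KO library. Among the 9054 genes with at least 1000 reads, 4.5% passed 2-fold upward and 4.02% downward, and among the 14420 genes with at least 50 reads the shares were 10.8% upward and 14.7% downward. At 1.5-fold, 4 members (9.52%) were higher and 2 (4.76%) lower, where 14.6% of genes with at least 1000 reads were higher and 11.3% lower (19.8% and 22.8% of genes with at least 50 reads). The members' median log2 ratio was 0.16, against 0.04 for all genes with at least 1000 reads and -0.01 for those with at least 50. The median size of the log2 ratio, whatever its sign, was 0.24 for the members and 0.33 for genes with at least 1000 reads.

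Small shifts were nevertheless resolved by the depth. The counting interval lay wholly above 1 for 18 members (42.9%) and wholly below 1 for 5 (11.9%), while 19 held 1. These counts depend on the scaling: 15 lay above and 7 below with upper-quartile scaling, and 14 above and 7 below with library totals. Among genes with at least 1000 reads the shares were 18.7% above and 15.2% below, and among those with at least 50 reads 12.5% and 11.2%. Lysosomal genes are read deeply, from 1868 to 802089 reads in the NRP2 KO library and from 1701 to 636688 in the Control library, and deeper genes have narrower intervals. Of the 36 members with at least 10000 reads over both libraries, a depth limit picked with the values in view, the interval lay above 1 for 17 (47.2%) and below 1 for 4 (11.1%), where 30.8% and 24.3% of the 2548 genes of that depth did so. At that depth 3.65% of genes passed 2-fold upward and 2% downward, and 13.2% and 7.46% passed 1.5-fold. Of the 36 members, 1 (2.78%) passed 2-fold upward and 0 downward, and 3 (8.33%) and 2 (5.56%) passed 1.5-fold. The summed reads of the 42 members were 1.19-fold higher in the NRP2 KO library (1.18 to 1.21), a sum in which Psap alone supplied 802089 of 1941612 reads in the NRP2 KO library and 636688 of 1596685 in the Control library. Without Psap the ratio was 1.16 (1.14 to 1.18).

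**Figure D1:**
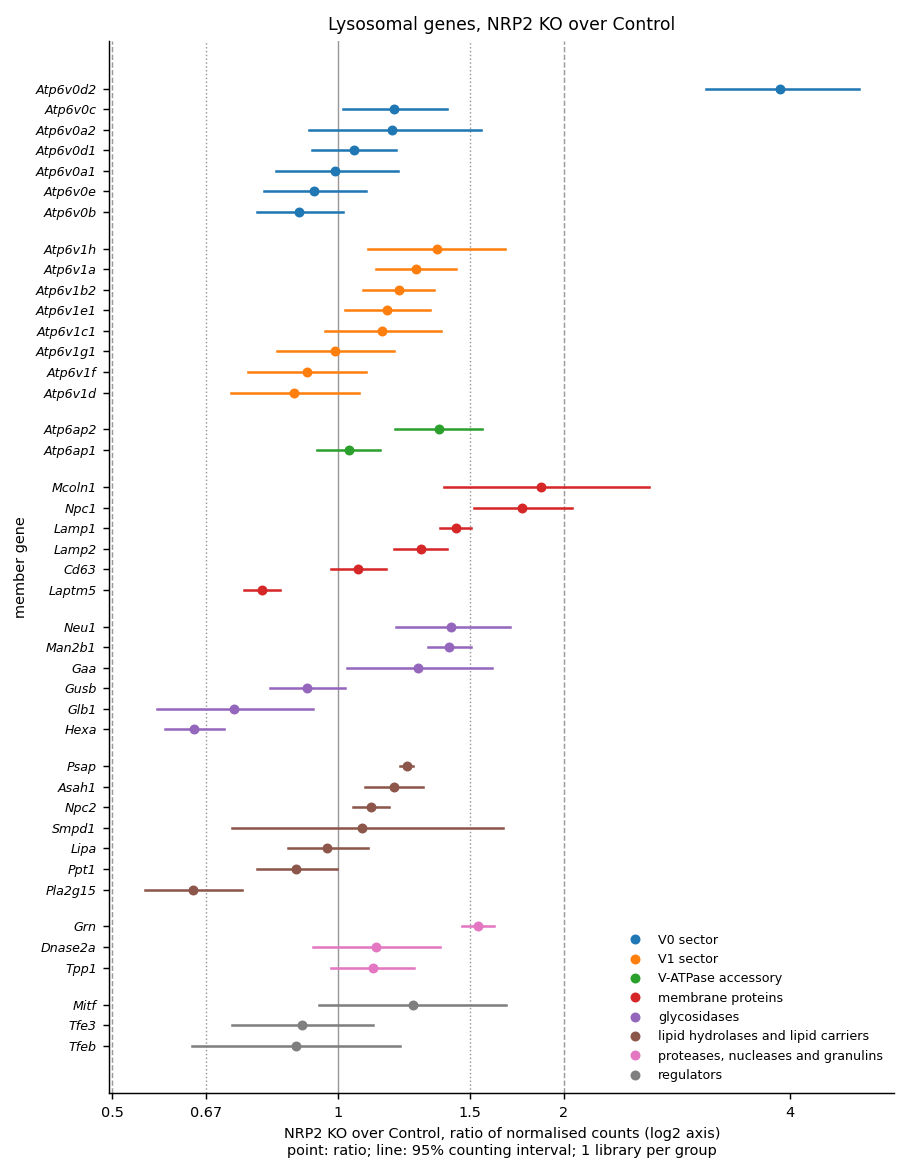
Ratio of normalised counts, NRP2 KO over Control, for each of the 42 lysosomal genes (points, log2 axis) with its 95% counting interval (lines), grouped by class; dotted lines mark 1.5-fold and dashed lines 2-fold in either direction. Atp6v0d2 lies alone at 3.88, and every other gene lies between 0.641 and 1.87.

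**Figure D2:**
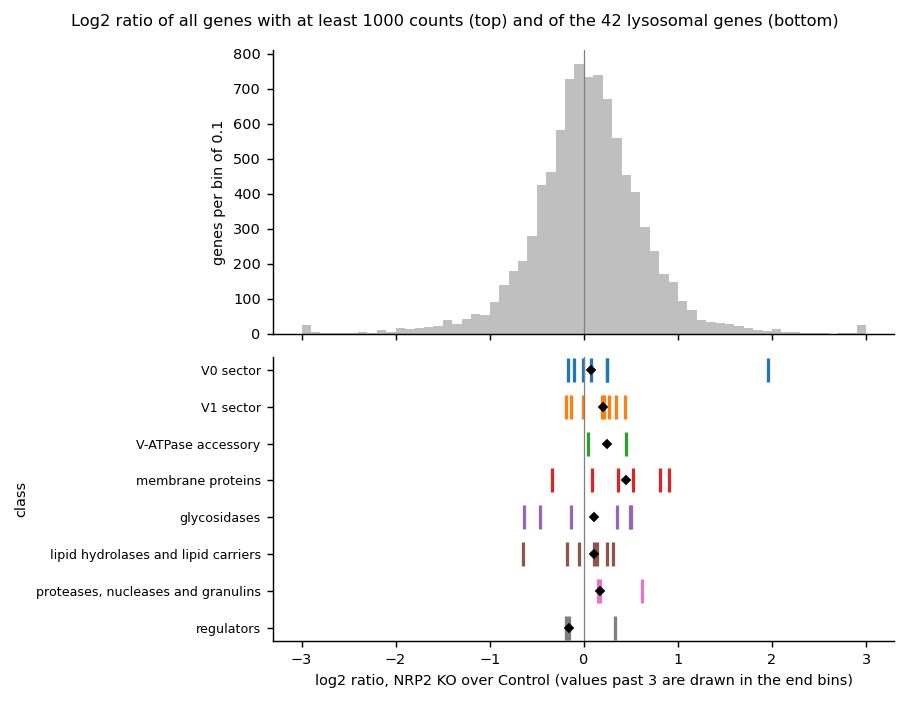
Upper panel: number of genes (of 9054 with at least 1000 reads) in each bin of the log2 ratio, NRP2 KO over Control; lower panel: the same ratio for each lysosomal gene as a tick, with the class median as a diamond. The class medians run from -0.16 for the regulators to 0.44 for the membrane proteins.

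Promoters of Mcoln1, Lamp1, Atp6v0b and Glb1 are shown because each carries the E-box CACGTG preceded by T, the element through which TFEB and its relatives are known to act, while the genes' ratios ran from 1.87 for Mcoln1 and 1.43 for Lamp1 to 0.887 for Atp6v0b and 0.726 for Glb1. Sequences are RefSeq promoters of 250 bases before and 50 after the start, build GRCm38.p6, written in the direction of the gene, and capitals mark TCACGTG or its reverse CACGTGA. They lie at chr8:3500269-3500568 (plus strand) for Mcoln1, chr8:13158911-13159210 (plus strand) for Lamp1, chr4:117887280-117887579 (minus strand) for Atp6v0b and chr9:114400828-114401127 (plus strand) for Glb1.
Mcoln1: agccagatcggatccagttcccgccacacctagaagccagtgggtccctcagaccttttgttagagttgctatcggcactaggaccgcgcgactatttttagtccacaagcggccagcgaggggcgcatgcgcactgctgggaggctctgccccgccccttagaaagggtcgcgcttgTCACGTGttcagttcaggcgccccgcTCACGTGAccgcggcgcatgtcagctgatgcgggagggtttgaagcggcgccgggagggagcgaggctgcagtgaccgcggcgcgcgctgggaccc
Lamp1: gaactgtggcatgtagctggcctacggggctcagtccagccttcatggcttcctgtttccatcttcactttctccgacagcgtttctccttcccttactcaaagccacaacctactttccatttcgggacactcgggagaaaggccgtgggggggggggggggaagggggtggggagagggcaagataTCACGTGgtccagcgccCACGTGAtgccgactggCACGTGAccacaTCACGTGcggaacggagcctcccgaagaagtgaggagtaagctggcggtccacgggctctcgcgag
Atp6v0b: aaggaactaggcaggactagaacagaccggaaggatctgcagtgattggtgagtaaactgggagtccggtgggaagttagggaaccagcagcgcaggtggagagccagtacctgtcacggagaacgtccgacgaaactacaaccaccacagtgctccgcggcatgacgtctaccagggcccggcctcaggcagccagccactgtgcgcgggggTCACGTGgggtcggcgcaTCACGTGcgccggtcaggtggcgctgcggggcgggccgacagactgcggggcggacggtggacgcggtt
Glb1: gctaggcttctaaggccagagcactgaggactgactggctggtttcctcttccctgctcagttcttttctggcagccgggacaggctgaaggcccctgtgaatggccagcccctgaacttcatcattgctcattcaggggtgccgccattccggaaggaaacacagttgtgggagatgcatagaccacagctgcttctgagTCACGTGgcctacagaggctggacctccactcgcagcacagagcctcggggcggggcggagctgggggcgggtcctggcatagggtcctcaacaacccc

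Mcoln1 holds 2 E-boxes, 1 of them read as TCACGTG on both strands, Lamp1 holds 4, Atp6v0b 2 and Glb1 1. The table held promoters for 34 of the 42 genes. CACGTG, searched on both strands, which read the same, was in 8 of the 34 (23.5%), against 8.09% of all 27025 genes in the table. All 8 also had TCACGTG or CACGTGA (23.5%, against 4.29% of all genes); the others were Atp6v0d1, Atp6v0e, Atp6v1a and Gaa. The M-box TCATGTG or CACATGA was in other genes of the list, Atp6v0c, Grn, Ppt1 and Tpp1 (4 genes, 11.8%, against 4.31%). The 8 genes with an E-box had a median log2 ratio of 0.21 with ratios from 0.726 to 1.87. The 26 without had 0.10 with ratios from 0.641 to 1.54, so the ranges overlap in large part. A match is a description of letters in this window and not a binding site. Atp6v0d2 and Npc1 were among the 8 genes with no entry.

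The V0 sector holds the proton path of the pump. Its 7 listed genes had a median log2 ratio of 0.07, and the other 6 members apart from Atp6v0d2 lay between a ratio of 0.887 and 1.19. Atp6v0d2 (ENSMUSG00000028238, GRCm38 chromosome 4, 19876841 to 19922605, minus strand) encodes the d2 form of the subunit that couples the V0 ring to the stalk of V1, a form known from osteoclasts, where it also takes part in cell fusion, and from macrophages. It had 15656 reads in the NRP2 KO library against 3955 in the Control library, or 233.7 CPM in the NRP2 KO library against 60.2 CPM in the Control library. Its ratio of 3.88 had an interval of 3.09 to 4.94, and it ranked 61st from the top among the 9054 genes with at least 1000 reads. The authors' deposited table gives the gene a log2 fold change of 1.97. Standard errors and adjusted p-values of that table are left out, because 1 library per group holds no measure of the spread between animals.

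The d1 form, Atp6v0d1, which most cells use, was at 265.1 CPM in the NRP2 KO library and 252.3 CPM in the Control library, a ratio of 1.05 whose interval of 0.923 to 1.19 holds 1. Per length of transcript, in TPM, Atp6v0d2 was at 236.0 in the NRP2 KO library and 61.0 in the Control library, and Atp6v0d1 at 405.4 in the NRP2 KO library and 387.1 in the Control library. The d2 form therefore made up 36.8% of subunit d transcripts in the NRP2 KO library (95% interval 34.3 to 39.3) and 13.6% in the Control library (10.9 to 16.7). Both intervals are exact binomial intervals on fragments and do not overlap.

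Atp6v0d2 is also a gene of osteoclasts, so the osteoclast markers were read beside it. Calcr, the calcitonin receptor gene that defines osteoclasts, had 0 reads in both libraries, and Oscar had 4 in the NRP2 KO library and 0 in the Control library. Dcstamp and Ocstamp, which encode membrane proteins of cell fusion, were lower in the NRP2 KO library, opposite to Atp6v0d2. Dcstamp had 738 reads in the NRP2 KO library against 5044 in the Control library, 6.97-fold lower (4.59 to 10.6). Ocstamp had 802 reads in the NRP2 KO library against 3188 in the Control library, 4.06-fold lower (2.68 to 6.44). Nfatc1, a transcription factor of osteoclast formation, was at a ratio of 0.631 (0.479 to 0.833), and Acp5, tartrate-resistant acid phosphatase, at 1.45 (1.32 to 1.59). The 6 markers summed to 670.7 CPM in the NRP2 KO library and 611.8 CPM in the Control library, most of it Acp5.

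The remaining V0 genes moved little. Atp6v0c encodes the c subunit, the proteolipid that builds most of the rotating ring, and had 12837 reads in the NRP2 KO library and 10585 in the Control library (ratio 1.19, 1.02 to 1.4). Its value is uncertain, because its processed pseudogene copy Atp6v0c-ps2 was credited with 5887 reads in the NRP2 KO library and 2991 in the Control library, and the counting could split reads between the copies. Atp6v0b, whose product is the c'' proteolipid of the same ring, was at 229.5 CPM in the NRP2 KO library and 258.8 CPM in the Control library (ratio 0.887, 0.78 to 1.01). Atp6v0e, the gene of the small e subunit, had 11152 reads in the NRP2 KO library and 11768 in the Control library (ratio 0.929, 0.797 to 1.09).

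Subunit a, which forms the channels that lead protons in and out and sends the pump to different membranes, comes in several forms. Atp6v0a1 had 8340 reads in the NRP2 KO library and 8246 in the Control library (ratio 0.991, 0.828 to 1.2). Atp6v0a2, the form of the Golgi and endosomes, had 4765 reads in the NRP2 KO library and 3953 in the Control library (ratio 1.18, 0.914 to 1.55). Neither listed form differed beyond its interval. Tcirg1, which encodes the a3 form of lysosomes and osteoclasts and is not on the list of 42, had 46335 reads in the NRP2 KO library against 27516 in the Control library (ratio 1.65, 1.51 to 1.82). In TPM, Tcirg1 supplied 83.6% of subunit a transcripts in the NRP2 KO library (82.2 to 84.9) and 76.2% in the Control library (73.4 to 78.8). So the most abundant a form and the less abundant d form were the higher ones. For the other subunits 1 form made up nearly all transcripts in both libraries: Atp6v1b2 supplied 100% of subunit B in each, and Atp6v0e 95.5% of subunit e in the NRP2 KO library and 95.02% in the Control library.

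**Figure D3:**
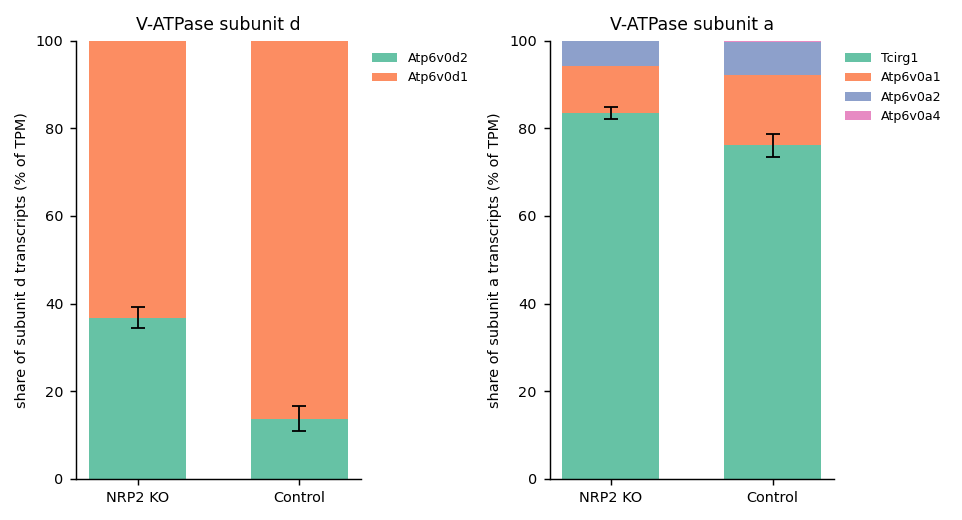
Share of each form among transcripts of V-ATPase subunit d (left) and subunit a (right), in percent of TPM, in the NRP2 KO and Control libraries; black bars are exact 95% binomial intervals for the lowest segment, on fragments. Atp6v0d2 reaches 36.8% in the NRP2 KO library and 13.6% in the Control library, and Tcirg1 reaches 83.6% in the NRP2 KO library and 76.2% in the Control library.

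The V1 sector, the ATP-splitting part, had a median log2 ratio of 0.21 over 8 genes, with 0 past 1.5-fold in either direction. Of these, 5 had a ratio above 1 and 3 below it, where 4824 of the 9054 genes with at least 1000 reads were above 1. Atp6v1h, whose product regulates the sector and silences it when it is detached, had 8157 reads in the NRP2 KO library and 5909 in the Control library (ratio 1.35, 1.1 to 1.67). Atp6v1a and Atp6v1b2 encode the A subunit, which splits ATP, and the B2 subunit that sits beside it. Atp6v1a was at 332.8 CPM in the NRP2 KO library and 262.3 CPM in the Control library (ratio 1.27, 1.124 to 1.44). Atp6v1b2 was at 404.9 CPM in the NRP2 KO library and 336.1 CPM in the Control library (ratio 1.2, 1.08 to 1.34).

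Peripheral and central stalk genes of V1 were split. Atp6v1e1, a peripheral stalk gene, had 18327 reads in the NRP2 KO library and 15448 in the Control library (ratio 1.16, 1.02 to 1.33). Its partner Atp6v1g1 had 8925 reads in the NRP2 KO library and 8818 in the Control library (ratio 0.992, 0.829 to 1.19). Atp6v1c1, whose product joins and leaves the pump as it assembles, was at a ratio of 1.15 (0.961 to 1.37). The central stalk gene Atp6v1d had 6965 reads in the NRP2 KO library and 7803 in the Control library (ratio 0.875, 0.72 to 1.06). Atp6v1f, also of the central stalk, had 8195 reads in the NRP2 KO library and 8840 in the Control library (ratio 0.909, 0.758 to 1.09), and both intervals hold 1. No V1 gene had an interval wholly below 1, and 4 of the 8 had one wholly above it. Among all genes with at least 10000 reads, a depth that each V1 gene reached, 30.8% lay above and 24.3% below. The difference was not tested. Atp6v1h, counted above, was at a log2 ratio of 0.12 with the trend in length and GC content removed.

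The accessory subunits differed from each other. Atp6ap2, known as the prorenin receptor and needed for assembly of the pump, had 19971 reads in the NRP2 KO library and 14359 in the Control library (ratio 1.36, 1.19 to 1.56). Atp6ap1, which encodes the Ac45 subunit, had 30828 reads in the NRP2 KO library and 29266 in the Control library (ratio 1.03, 0.937 to 1.14), a value close enough to 1 that its direction turned under upper-quartile scaling and library totals. Over all 17 pump and accessory genes the summed reads were 1.15-fold higher in the NRP2 KO library (1.11 to 1.19), and without Atp6v0d2 1.1-fold higher (1.06 to 1.14). The V0 sector without Atp6v0d2 had summed reads at a ratio of 1.01 (0.949 to 1.08).

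Among lysosomal membrane proteins 5 of 6 genes had a ratio above 1, where 4824 of the 9054 genes with at least 1000 reads did. The class had a median log2 ratio of 0.44, the highest of the 8 classes. Its summed reads were at a ratio of 1.17 (1.14 to 1.21), against 1.19 for all 42 members. With the trend in length and GC content removed its median was 0.32, and that of the accessory subunits 0.30. Mcoln1, which encodes the calcium channel TRPML1 of the lysosomal membrane, had 4775 reads in the NRP2 KO library against 2509 in the Control library, or 71.3 CPM in the NRP2 KO library against 38.2 CPM in the Control library. Its ratio was 1.87 (1.38 to 2.59). Npc1, which encodes the exporter of cholesterol that is mutated in Niemann-Pick disease type C, had 19232 reads in the NRP2 KO library against 10721 in the Control library (ratio 1.76, 1.52 to 2.05). Part of the Npc1 exons overlap those of Rmc1 on the opposite strand, over 511 bases; Rmc1 had 4043 reads in the NRP2 KO library and 2944 in the Control library, and reads of such pairs are uncertain where counting does not use the strand, which is not stated.

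Lamp1 and Lamp2, the heavily glycosylated proteins that line the lysosomal membrane, were both higher. Lamp1 had 161366 reads in the NRP2 KO library and 110320 in the Control library (ratio 1.43, 1.37 to 1.5). Lamp2, the receptor of chaperone-mediated autophagy, had 50556 reads in the NRP2 KO library and 38425 in the Control library (ratio 1.29, 1.19 to 1.4). With the trend in length and GC content removed, the log2 ratio was 0.07 for Lamp2 and 0.65 for Lamp1. Cd63, a tetraspanin of late endosomes, was at 613.2 CPM in the NRP2 KO library and 576.4 CPM in the Control library, and its interval of 0.978 to 1.16 holds 1. Laptm5, a lysosomal membrane protein gene restricted to blood cells, was the exception, with 80691 reads in the NRP2 KO library against 99765 in the Control library, 1.26-fold lower (1.19 to 1.33). Cd68, a LAMP family member used as a macrophage marker and not on the list of 42, was at 1.68 (1.56 to 1.81).

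The glycosidases, which strip sugars from glycoproteins and glycolipids, were divided evenly, with 3 of 6 above 1 and 3 below. Over all genes with at least 1000 reads, 4824 of 9054 were above 1. Hexa encodes the alpha chain of beta-hexosaminidase, which degrades the ganglioside GM2. It had 25668 reads in the NRP2 KO library against 39119 in the Control library, and was thus 1.55-fold lower (1.42 to 1.7). Glb1, the lysosomal beta-galactosidase gene, had 4224 reads in the NRP2 KO library against 5701 in the Control library, 1.38-fold lower (1.08 to 1.74); it shares 165 bases of exon with Tmppe on the same strand, where Tmppe had 223 reads in the NRP2 KO library and 407 in the Control library. Gusb, beta-glucuronidase, had 20399 reads in the NRP2 KO library and 21970 in the Control library (ratio 0.91, 0.813 to 1.02).

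The glycosidase genes on the other side had ratios within a narrow range. Neu1, the lysosomal sialidase gene, had 11973 reads in the NRP2 KO library and 8289 in the Control library (ratio 1.42, 1.19 to 1.69). Man2b1, alpha-mannosidase, had 80982 reads in the NRP2 KO library and 56419 in the Control library (ratio 1.41, 1.32 to 1.5). Gaa, which degrades glycogen, had 6946 reads in the NRP2 KO library and 5327 in the Control library (ratio 1.28, 1.03 to 1.61). The direction of the class total depended on the scale: summed reads were 1.08-fold higher in the NRP2 KO library (1.03 to 1.12), with Man2b1 the most read gene, while summed TPM were 1371 in the NRP2 KO library and 1537 in the Control library, with Hexa the highest. Hexa and Glb1, whose products act on gangliosides, were both lower, and the sialidase gene Neu1 was higher. Glb1 and Neu1 encode enzymes of 1 complex.

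Lipid hydrolases and lipid carriers had a median log2 ratio of 0.11 over 7 genes. Psap, the precursor of the saposins that present lipids to hydrolases, was the most read member, at 11974 CPM in the NRP2 KO library and 9697 CPM in the Control library (ratio 1.23, 1.21 to 1.26). Pla2g15, the lysosomal phospholipase A2 gene, went the other way, with 9927 reads in the NRP2 KO library against 15182 in the Control library, 1.56-fold lower (1.34 to 1.81). Asah1, acid ceramidase, had 40713 reads in the NRP2 KO library and 33619 in the Control library (ratio 1.19, 1.09 to 1.3). Npc2, which hands cholesterol to NPC1, was at 1452 CPM in the NRP2 KO library and 1314 CPM in the Control library (ratio 1.1, 1.05 to 1.17).

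The other lipid genes lay around 1. Lipa, the acid lipase that frees cholesterol from its esters, was at 276.5 CPM in the NRP2 KO library and 285.9 CPM in the Control library, and its interval of 0.857 to 1.1 holds 1. Smpd1, acid sphingomyelinase, was the least read member, with 1868 reads in the NRP2 KO library and 1701 in the Control library, and its interval of 0.722 to 1.66 is wide. Ppt1, a thioesterase that removes palmitate from proteins, had 17605 reads in the NRP2 KO library and 19604 in the Control library (ratio 0.88, 0.78 to 0.996). Its exons overlap those of Cap1 on the opposite strand over 129 bases, and Cap1 had 34017 reads in the NRP2 KO library and 34948 in the Control library, so the value of Ppt1 is uncertain. Along the route by which lysosomes release cholesterol, then, the membrane exporter gene Npc1 had the larger ratio, Npc2 a smaller one and Lipa none that its interval separates from 1.

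Of the remaining luminal genes Grn moved most. Grn encodes progranulin, a secreted precursor that lysosomes cut into granulins. It had 159029 reads in the NRP2 KO library against 101408 in the Control library (ratio 1.54, 1.46 to 1.61). It stayed past 1.5-fold with DESeq2 size factors but not with upper-quartile scaling (log2 ratio 0.56) or library totals (0.55), under which 3 members in place of 4 were at least 1.5-fold higher. Tpp1, tripeptidyl peptidase 1, had 18866 reads in the NRP2 KO library and 16628 in the Control library (ratio 1.11, 0.979 to 1.26). Dnase2a, the nuclease that digests DNA of engulfed cells, had 8396 reads in the NRP2 KO library and 7317 in the Control library (ratio 1.125, 0.927 to 1.36). Both intervals hold 1.

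**Figure D4:**
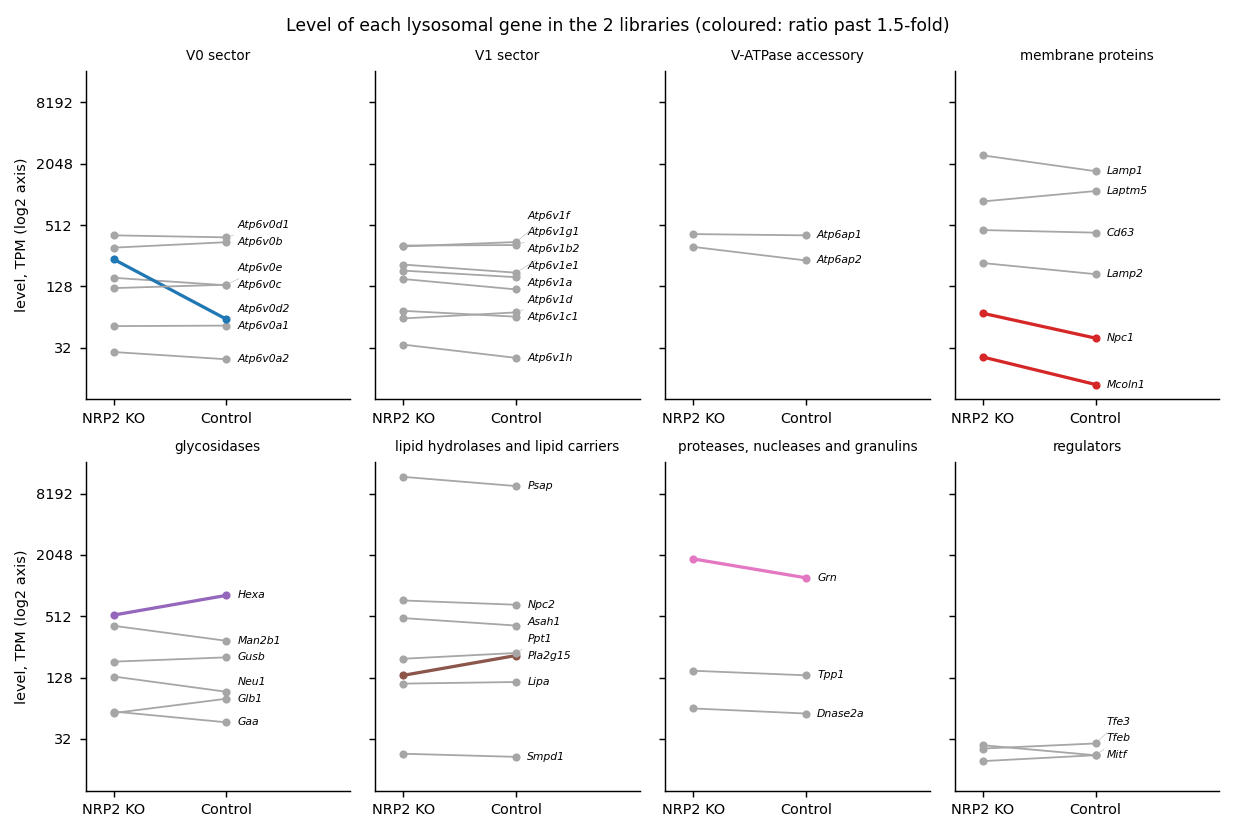
Level of each lysosomal gene in TPM (log2 axis), with the NRP2 KO library at the left and the Control library at the right of each panel; each line is 1 gene, and coloured lines mark ratios past 1.5-fold. Atp6v0d2 is at 236.0 TPM in the NRP2 KO library and 61.0 TPM in the Control library, and Psap is the highest line, at 11967 TPM in the NRP2 KO library and 9721 TPM in the Control library.

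The transcription factors that govern these genes were the least expressed class. Tfeb was at 40.1 CPM in the NRP2 KO library and 45.7 CPM in the Control library (ratio 0.878, 0.639 to 1.21). Tfe3 was at 87.0 CPM in the NRP2 KO library and 97.3 CPM in the Control library (ratio 0.894, 0.722 to 1.11). Mitf was at 62.8 CPM in the NRP2 KO library and 49.9 CPM in the Control library (ratio 1.26, 0.943 to 1.68). All 3 intervals hold 1. Their activity is set mainly by phosphorylation and entry into the nucleus, which RNA counts do not measure.

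Genes of the same pathway outside the list of 42, taken from lists drawn up with earlier results of these data known, included a few larger differences. Of 98 such genes 91 had at least 50 reads, and of these 12 passed 2-fold upward and 3 downward in the NRP2 KO library (median log2 ratio 0.33), where 10.8% of all genes with at least 50 reads passed upward and 14.7% downward. Since 85 of the 91 had at least 1000 reads, the shares of 4.5% upward and 4.02% downward at that depth are the nearer ones. At 1.5-fold 28 of the 91 were higher and 7 lower, where 14.6% of all genes with at least 1000 reads were higher and 11.3% lower (19.8% and 22.8% with at least 50 reads). Among 9 other V-ATPase genes, which include its assembly factors, 1 passed 2-fold upward and 1 downward, with a median of 0.47. With the trend in length and GC content removed this median was -0.02. Dmxl2, a rabconnectin that helps V1 to join V0, had 13131 reads in the NRP2 KO library against 4609 in the Control library (ratio 2.79, 2.25 to 3.5), and its partner Wdr7 was at 1.95 (1.34 to 2.86). Rogdi, the remaining factor of that complex, was 1.97-fold lower (1.48 to 2.59). The downward count is Atp6v0a4, which had 0 reads in the NRP2 KO library and 105 in the Control library, which is under the floor of 3 fragments, or 141 reads, that a count of 0 allows there.

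Among 30 other hydrolases 4 passed 2-fold upward and 2 downward (median 0.22). Of all genes with at least 1000 reads, 4.5% passed 2-fold upward and 4.02% downward. Hgsnat, which acetylates heparan sulfate at the lysosomal membrane, was at 2.75 (2.33 to 3.26), and Sgsh, a sulfatase of the same degradation route, at 2.23 (1.62 to 3.14). Hyal1, a hyaluronidase gene, was at 2.76 (1.14 to 8.04), with 802 reads in the NRP2 KO library and 285 in the Control library. Plbd1, a phospholipase B-like gene, was 2.56-fold lower (2.34 to 2.8), with 20903 reads in the NRP2 KO library against 52401 in the Control library. Named after their values were seen, to complete these counts, are Smpdl3a, an acid sphingomyelinase-like gene, at 2.13 (1.85 to 2.45), and Hyal2, 2.16-fold lower (1.07 to 4.17).

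Of 24 other membrane proteins 2 passed 2-fold upward and 0 downward (median 0.34). The shares over all genes with at least 1000 reads were 4.5% upward and 4.02% downward. This list was led by Mfsd8, a lysosomal transporter gene, at 2.28 (1.14 to 4.75) and Gpr137b at 2.1 (1.56 to 2.9). Tmem106b, a lysosomal membrane protein gene linked in humans to progranulin disease, was at 1.96 (1.46 to 2.65), and Tmem192 at 1.72 (1.23 to 2.46).

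Among 19 regulators of TFEB and mTORC1, the kinase complex that keeps TFEB out of the nucleus, 3 passed 2-fold upward and 0 downward (median 0.43). For this list and the sorting genes below, the shares over all genes with at least 1000 reads were 4.5% upward and 4.02% downward. Fnip2 and Fnip1, partners of folliculin that act on the Rag GTPases of the lysosomal surface, were at 2.89 (2.34 to 3.6) and 2.04 (1.6 to 2.6). Rragd, 1 of those Rag GTPases, was at 2.62, with 519 reads in the NRP2 KO library, 194 in the Control library and an interval of 0.935 to 11 that holds 1. Lamtor2, a scaffold gene of the lysosomal surface, was 1.64-fold lower (1.24 to 2.22). Among 9 genes that sort new hydrolases to lysosomes, most of them of the mannose 6-phosphate route, 2 passed 2-fold upward and 0 downward (median -0.01). These were Igf2r, a receptor gene of that route, at 3.12 (2.36 to 4.28) and Sort1, a sorting receptor gene outside it, at 3.12 (2.19 to 4.53). M6pr, the other receptor gene of the route, named after its value was seen, was at 0.899 (0.826 to 0.978). Gnptab, which makes the tag, was at 1.5 (1.2 to 1.89), and Gga3, an adaptor of the route, at 0.868 (0.621 to 1.24).

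**Figure D5:**
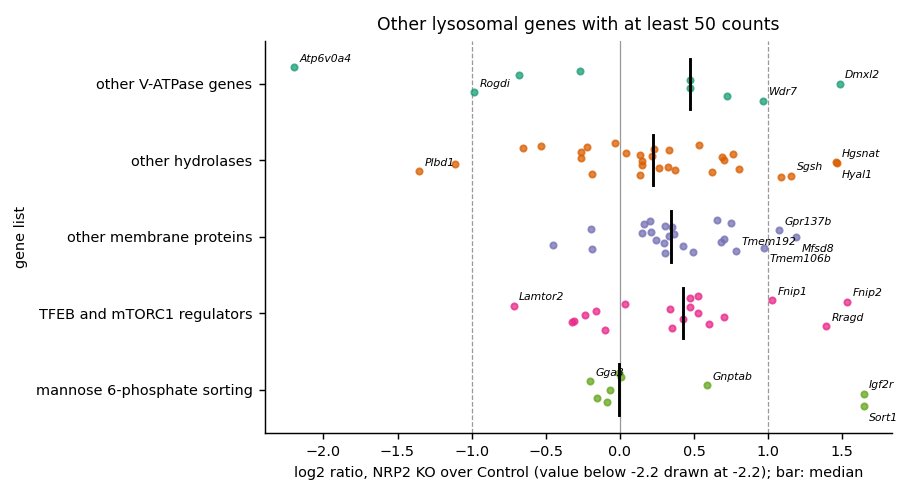
Log2 ratio, NRP2 KO over Control, of 91 further lysosomal genes in 5 lists (points), with at least 50 reads each, the list median as a bar and 2-fold marked by dashed lines. Sort1, Igf2r, Fnip2 and Dmxl2 lie farthest to the right, and Atp6v0a4, drawn at -2.2 and resting on 105 reads in the Control library alone, and Plbd1 farthest to the left.

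Transcript length moved with these ratios. Among genes with at least 1000 reads the median log2 ratio was -0.13 in the 2264 genes with the shortest merged exons (up to 2923 bases) and 0.21 in the 2261 with the longest (from 7059 bases). Across the 42 members, which share these same libraries, the correlation of the log2 ratio with log2 exon length was 0.23 (Pearson) and 0.27 (Spearman), and across the 16 pump genes without Atp6v0d2 it was 0.5 and 0.4. With the trend in length and GC content removed, a step added with the values in view, the log2 ratio was 1.97 for Atp6v0d2, 0.79 for Mcoln1, 0.69 for Grn and 0.65 for Lamp1, all past 1.5-fold. Under the same step it was 0.51 for Npc1, -0.54 for Pla2g15 and -0.49 for Hexa, which then lay inside 1.5-fold with their direction kept. Lamp2 was at 0.07 and Atp6v1h at 0.12, close to 0 where they had been at 0.37 and 0.44 before it.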

How the data were processed

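Messenger RNA of CD11b+ tumour cells was sequenced in 2 libraries, 1 per group. Per the labels' protocols the libraries were made with an Illumina TruSeq stranded kit. Trimming, alignment and counting tools listed in the submitters' processing notes are cutadapt, HISAT2 and featureCounts, with the build GRCm38 and no versions. The strand setting of the counting was not stated. The authors deposited whole-number counts of read 1 per Ensembl gene, per the file headers, with no normalisation. Their deposited comparison table holds normalised counts, a signal equal to the counts divided by a constant (1.005 for NRP2 KO and 0.9949 for Control, as checked on the values). The same deposited table gives a log2 fold change with its standard error on the log2 scale, and their quotient as a score. Raw and adjusted p-values in that table are likewise the authors', from a tool they do not name in the header.

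Symbols, coordinates and merged exon lengths came from GENCODE release M21 (GRCm38), which named 49326 of 49585 identifiers. Library sizes were scaled with TMM (edgeR 4.0.16, R 4.3.3; factors 0.977 for NRP2 KO and 1.02 for Control). Log2 ratios, NRP2 KO over Control, used a prior of 0.5 counts, over genes with at least 50 counts in both libraries together. CPM used the scaled sizes, and TPM the exon lengths. Fold limits were 2 and 1.5. Intervals were 95% exact Clopper-Pearson intervals on reads divided by 24 (NRP2 KO) and 47 (Control), and a count of 0 allows up to 3 such fragments, or 72 and 141 reads. The script was tested on simulated counts. All 42 genes may be named; reads, ratio and interval are given for up to 5 per class with the largest ratios in either direction, those past 1.5-fold and the most read, and for up to 4 genes of each other list. The 42 genes and all other lists were chosen with earlier results of these data known. Alternatives were other scalings (DESeq2 1.42.0 size factors, upper quartile, library totals), other filters, a prior of 5 counts, intervals on reads, shares of reads and, added later, removal of a lowess trend in length and GC content.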

Additional observations from a re-analysis of the deposited data

How the results depend on the processing

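With 1 pooled library per group no library could be left out, and neither the spread between animals nor a p-value can be given. No paired analysis was possible because each group has 1 library and the labels give no replicate number. Counts of members past 2-fold, and the median over all 42, moved by less than the limits set here under DESeq2 size factors, no filter, at least 1000 counts, a prior of 5 counts and the log2 fold changes of the authors' deposited table. Upper-quartile scaling gave log2 ratios of summed reads of 0.1956 for all members, 0.1692 for the membrane proteins and 0.1967 for the lipid genes. Library totals gave 0.1865, 0.1601 and 0.1876 for the same sets, 0.03876 for the glycosidases and 0.4758 for the proteases, nucleases and granulins. These scalings shifted the members' median by -0.06 and -0.07. With the length and GC trend removed, an alternative added after seeing the data, 0 members were at least 1.5-fold lower and the membrane median was 0.3208. Intervals on reads put 27 members wholly above 1 and 13 wholly below, against 18 and 5 on fragments; on fragments the counts were 18 and 4 with DESeq2 size factors, 15 and 7 with upper-quartile scaling and 14 and 7 with library totals. Under the last 2 scalings Grn lost its place past 1.5-fold (log2 ratios 0.5625 and 0.5534), leaving 3 members there. As shares of reads, Atp6v0d2 made up 46.86% in NRP2 KO and 19.27% in Control, and Tcirg1 77.95% in NRP2 KO and 69.1% in Control. The ratios near 1 of Atp6v0a1, Atp6v1g1, Atp6v1f and Atp6ap1 changed side under 1 or more of these settings. Apart from the alternatives' own construction, the cause was not tested. Depth limits Smpd1 most, the least read member.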
